A study of Homo sapiens with 18 samples.

Results

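The regions described here are 245 of the 3863 enhancers counted in 18 libraries of 2 human acute myeloid leukaemia cell lines. Each had 0 tags over the 6 libraries with vehicle and at least 6 tags over the 12 libraries with a BET inhibitor, so they are called drug-only enhancers below. Tags were read by cap analysis of gene expression (CAGE), a method that counts short reads from the capped ends of transcripts and thereby locates their starts. The enhancers were chosen by their raw vehicle and drug tags, and their difference between vehicle and drug is therefore given as a description, without a test. What the choice did not use is how the tags split between the compounds and between the lines, where the enhancers lie, and how nearby genes moved.

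The lines, OCI-AML2 and OCI-AML3, are labelled AML2 and AML3. As background, OCI-AML3 carries a mutated NPM1 gene and OCI-AML2 does not, and the labels give no genotype. Each line was treated with DMSO (the vehicle), JQ1 or OTX015, with 3 libraries per group, all from total RNA. Both compounds are thienotriazolodiazepines that fill the acetyl-lysine pocket of BET bromodomains, JQ1 with a tert-butyl ester and OTX015 with a hydroxyphenyl amide side chain. The labels give neither dose nor time, and they do not say that libraries of a group came from separate cultures, so p-values measure the spread between these libraries, which may be technical. Each library is a bulk sample, in which fewer cells of a type and less RNA per cell cannot be told apart.

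Active enhancers are transcribed outward in both directions into short, capped and unstable RNAs, which CAGE detects at low level. BET proteins bind acetylated histones at enhancers and promoters and help RNA polymerase II leave its pausing site. JQ1 and OTX015 displace them, and the transcription of many genes then falls while that of others, such as HEXIM1, rises.

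Promoter tags per library ran from 828024 to 2180812 with vehicle and from 313300 to 1304931 with a drug, and enhancer tags from 2103 to 7646. The libraries numbered 3 were the shallowest of each group. In AML3 with drug they also stood apart, with 14060 and 14220 enhancer tags per 1000000 promoter tags (CPM) against 7113 to 8811 in the 4 others. The myeloid genes CD33, SPI1, CEBPA, PTPRC and CSF3R had tags in all 18 libraries, ANPEP had 19 tags in all, and MPO was not analysed here. Of the markers of other cell types, CD79A had 8 tags and COL1A2 had 18 tags over all libraries, and the others were not analysed here. HEXIM1, a gene known to rise under BET inhibitors, went from a mean of 17.6 CPM (tags per 1000000 gene tags) with vehicle to 150 and 321 with JQ1 and OTX015 in AML2, and from 15.8 to 378 and 410 in AML3.

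Reference sequence was at hand for 10 stretches of at least 200 bases where drug-only enhancers overlap a promoter window of the RefSeq tables (GRCh38.p14, 250 bases before to 50 bases after a gene start) or a GENCODE 29 exon. The 6 printed here are those with the most tags among them, with ties at 7 tags settled by the summed CPM over the drug libraries, and the choice was made after the values were seen. Capitals mark matches on either strand to the 15 motifs searched, which are AP-1 (TGANTCA), CRE (TGACGTCA), ETS/PU.1 (GAGGAA), C/EBP (TTGCNNAA), RUNX (TGTGGT), E-box (CACGTG), the GATA motif AGATAA, SP/KLF (GGGCGG), KLF (CACCC), a strict NF-kB motif and a wider one that contains it, IRF, the CCAAT box, STAT (TTCNNNGAA) and TATAAA for the TATA box. Where matches adjoin or overlap, the capitals run on. Each sequence reads 5′ to 3′ on the strand named.
chr15:66842420-66842652, minus strand: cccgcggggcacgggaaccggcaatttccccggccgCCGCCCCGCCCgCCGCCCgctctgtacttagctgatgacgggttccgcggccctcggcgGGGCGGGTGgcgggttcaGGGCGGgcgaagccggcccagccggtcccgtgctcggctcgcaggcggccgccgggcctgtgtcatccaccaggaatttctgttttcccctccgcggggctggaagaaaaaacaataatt
chr5:81851842-81852141, plus strand: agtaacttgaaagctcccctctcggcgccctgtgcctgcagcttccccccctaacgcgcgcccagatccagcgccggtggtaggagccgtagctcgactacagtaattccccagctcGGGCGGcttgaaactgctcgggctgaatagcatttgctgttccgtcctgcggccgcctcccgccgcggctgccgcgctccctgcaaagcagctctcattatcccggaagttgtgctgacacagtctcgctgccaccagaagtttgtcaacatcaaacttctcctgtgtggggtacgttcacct
chr5:140711026-140711325, plus strand: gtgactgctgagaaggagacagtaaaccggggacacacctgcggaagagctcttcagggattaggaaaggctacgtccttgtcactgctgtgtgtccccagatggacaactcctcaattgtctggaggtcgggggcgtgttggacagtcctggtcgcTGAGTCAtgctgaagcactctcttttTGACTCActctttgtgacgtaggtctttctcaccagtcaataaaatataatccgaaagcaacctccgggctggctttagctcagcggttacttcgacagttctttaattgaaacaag
chr1:23554893-23555192, minus strand: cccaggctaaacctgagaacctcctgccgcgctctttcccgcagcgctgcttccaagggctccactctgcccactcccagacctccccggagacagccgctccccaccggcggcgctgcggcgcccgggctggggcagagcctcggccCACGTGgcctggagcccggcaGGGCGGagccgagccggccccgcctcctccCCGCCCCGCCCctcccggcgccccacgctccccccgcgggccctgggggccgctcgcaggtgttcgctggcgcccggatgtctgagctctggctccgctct
chr4:15756377-15756652, minus strand: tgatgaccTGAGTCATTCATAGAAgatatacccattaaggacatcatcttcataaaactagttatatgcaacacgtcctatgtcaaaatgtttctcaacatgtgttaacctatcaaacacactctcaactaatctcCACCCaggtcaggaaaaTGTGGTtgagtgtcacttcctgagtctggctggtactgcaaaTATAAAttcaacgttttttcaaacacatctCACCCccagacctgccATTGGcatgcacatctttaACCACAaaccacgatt
chr10:121927324-121927573, minus strand: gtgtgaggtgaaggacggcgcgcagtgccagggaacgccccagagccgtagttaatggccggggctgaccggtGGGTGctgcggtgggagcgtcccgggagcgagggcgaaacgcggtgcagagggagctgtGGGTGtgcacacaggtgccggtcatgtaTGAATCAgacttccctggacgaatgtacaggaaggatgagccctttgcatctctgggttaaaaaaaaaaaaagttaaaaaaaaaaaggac

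The first stretch lies in an enhancer between genes of GENCODE 29 (chr15:66842110-66842652) with 12 tags, 1 in AML2 and 11 in AML3. It has a GC content of 70.8% and 5 SP/KLF matches, the most among the 6. The second overlaps an exon of the long non-coding RNA AC026726.1 (11 tags, 3 in AML2 and 8 in AML3) and holds 1 SP/KLF match. The third holds 2 AP-1 matches and lies in an enhancer with 9 tags. The midpoint of that enhancer lies 193 bases from the start of VTRNA1-1, a vault RNA gene, and the enhancer holds this start. The fourth lies 4055 bases from a transcript start of ID3, an inhibitor of basic helix-loop-helix factors (8 tags, 1 in AML2 and 7 in AML3), with 1 E-box and 3 SP/KLF matches in 77.0% GC. The fifth lies 21782 bases from the start of CD38, a surface NAD-cleaving enzyme (7 tags), with a GC content of 39.9% and 1 AP-1 match that runs into a STAT match. The sixth lies in an intron of ATE1, the arginyltransferase (7 tags), with 1 AP-1 match. Its enhancer holds all 300 bases of a RefSeq promoter window of ATE1, and thus that RefSeq start of the gene. The midpoint of the enhancer lies 646 bases from another annotated start of ATE1.

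The 10 RefSeq windows that the drug-only enhancers overlap could be set beside all 35116 windows of the same table. The AP-1 motif was in 6 of the 10 and in 7.71% of all windows. SP/KLF was in 4 of 10 and 45.0%, KLF in 6 of 10 and 59.9%, ETS/PU.1 in 2 of 10 and 27.9%, and CCAAT in 2 of 10 and 34.6%. CRE, both forms of NF-kB and IRF were in none of the 10, and C/EBP, RUNX, E-box, GATA, STAT and TATA were in 1 each. The median GC content was 54.9% in the 10 and 58.7% in all windows. These are matches of letters in whole windows that lie mostly before annotated starts, which need not coincide with the enhancers' own starts. The windows of LOC124903564 and LOC105373289 had 46 and 74 bases inside the enhancer, so a match may lie outside it. Windows overlapped by other enhancers were not counted, so it is not known whether the AP-1 share is particular to drug-only enhancers.

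The drug-only enhancers were thinly tagged. They held 2321 tags, 1194 with JQ1 and 1127 with OTX015, and 844 in AML2 and 1477 in AML3. A member of the group had 6 to 34 tags (median 8), in 3 to 12 of the drug libraries (median 5). Of the 245, 104 had a tag in at least 6 drug libraries, 74 in all 4 drug groups and 2 in all 12 drug libraries. In 7 of them a single library held over 50% of the tags.

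Zero tags among 8695486 promoter tags of the vehicle libraries allows a level of up to 0.345 CPM (3 tags, for counting error alone). A drug-only enhancer with 6 tags had 0.614 CPM over the 9766517 promoter tags of the drug libraries, which is 1.78 times that limit. The rule has a soft edge. Just inside it were 61 enhancers with 6 drug tags, and just outside it were 92 with 5 drug tags and no vehicle tag and 242 with at least 6 drug tags and 1 vehicle tag. The reverse pattern, 0 drug tags and at least 6 vehicle tags, held for 30 enhancers of the table, over fewer libraries and a total of 8695486 against 9766517 promoter tags.

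Summed over the 245, the CPM (tags per 1000000 promoter tags) was 154, 135 and 183 in the 3 AML2 libraries with JQ1 and 156, 138 and 196 in those with OTX015. In AML3 it was 290, 283 and 520 with JQ1 and 349, 338 and 533 with OTX015. Every AML3 drug library was above every AML2 drug library, and the compounds overlapped within each line. The means were 157 ± 24.2 and 163 ± 29.7 in AML2 and 364 ± 135 and 407 ± 110 in AML3 (SD, n = 3 each). The third library of each AML3 group lay far above the other two, and libraries numbered 3 were highest in AML2 too. Scaling by the TMM factors, which set the bulk of promoters level between libraries, brought these libraries together, with means of 172 ± 12.5 and 173 ± 7.94 in AML2 and 284 ± 21.1 and 304 ± 7.94 in AML3. The number of drug-only enhancers with a tag was 63 to 113 per AML2 drug library and 110 to 147 per AML3 drug library, although the AML3 libraries were shallower in all (4244557 against 5521960 promoter tags).

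**Figure D1:**
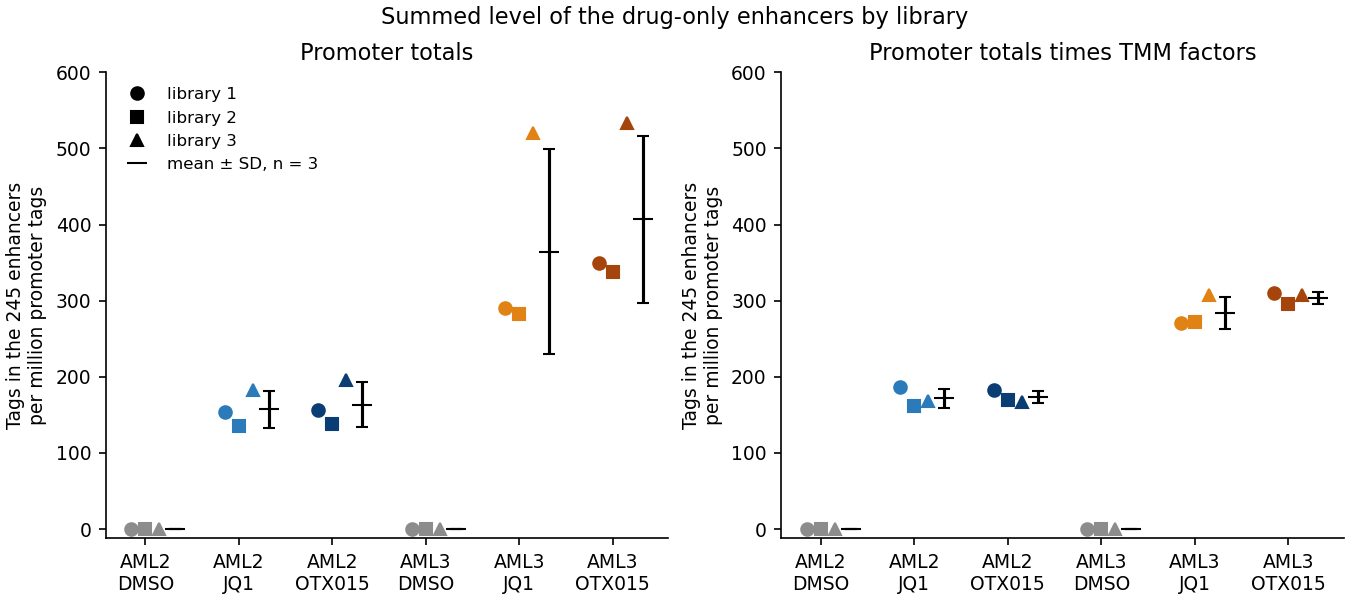
Summed level of the 245 drug-only enhancers in each library, in CPM (tags per 1000000 promoter tags) by promoter totals (left) and with TMM factors (right), with symbols for libraries and bars for mean ± SD. The vehicle libraries are at 0 by the choice of the enhancers, on the left the AML2 drug libraries sit between 135 and 196, and the AML3 drug libraries between 283 and 533.

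The summed level of the whole enhancer table was higher in the drug libraries too, and the drug-only enhancers were a similar share of the enhancer tags in each library of a line. That share was 3.19 ± 0.0473% and 2.94 ± 0.106% with JQ1 and OTX015 in AML2, and 3.88 ± 0.154% and 3.85 ± 0.111% in AML3 (SD, n = 3 each). The level of the whole enhancer table went from 2420 ± 261 with vehicle to 4920 ± 695 and 5540 ± 792 in AML2, and from 3120 ± 229 to 9500 ± 3950 and 10600 ± 3130 in AML3. These values move together with the summed level above, and the part of that general rise in the choice of the 245 was not tested.

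The enhancer with the most tags lay in an intron of RPTOR, which encodes the scaffold subunit of the mTORC1 kinase complex (chr17:80832588-80833507, 34 tags). Its AML2 libraries had 0, 4 and 0 tags with JQ1 and 2, 0 and 1 with OTX015, and its AML3 libraries 1, 5 and 3 and then 5, 6 and 7. The tags were concentrated in AML3, where every library had at least 1, and its drug level was at least 10.1-fold above the vehicle limit. The next lay between genes near the protocadherin gamma cluster (chr5:141513469-141514447, 29 tags). It was 5888 bases from a transcript start of PCDHGC3, a cell adhesion gene that shares its constant exons with its cluster. It was tagged in all 12 drug libraries, with 5, 2, 2 and 1, 3, 1 tags in AML2 and 1, 1, 3 and 4, 3, 3 in AML3. An enhancer between genes at chr9:88777913-88778138 also had 29 tags and was the other one tagged in all 12, with 1, 2, 4 and 3, 1, 5 in AML2 and 2, 4, 2 and 2, 2, 1 in AML3. Neither leaned to a line or a compound.

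Others among the 10 with the most tags were uneven between libraries. The enhancer at chr15:26082302-26082518, between genes, had 28 tags, of which 16 came from AML3 with JQ1 (6, 6 and 4). The enhancer in introns of FHOD1, an actin-nucleating formin, and SLC9A5, a sodium-proton exchanger (chr16:67244361-67244726), had 28 tags, with 4, 0, 2 and 3, 3, 1 in AML2 and 4, 4, 0 and 1, 4, 2 in AML3. It did not separate the lines (log2 0.14 for AML3 over AML2, adjusted p = 0.971, edgeR quasi-likelihood test). At chr7:20797851-20798198, between genes, 17 of the 24 tags were from AML2. At chr5:42949691-42950015, also between genes, 19 of the 24 were from AML3, yet 2 of the 6 AML2 libraries and 4 of the 6 AML3 libraries had a tag at all.

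**Figure D2:**
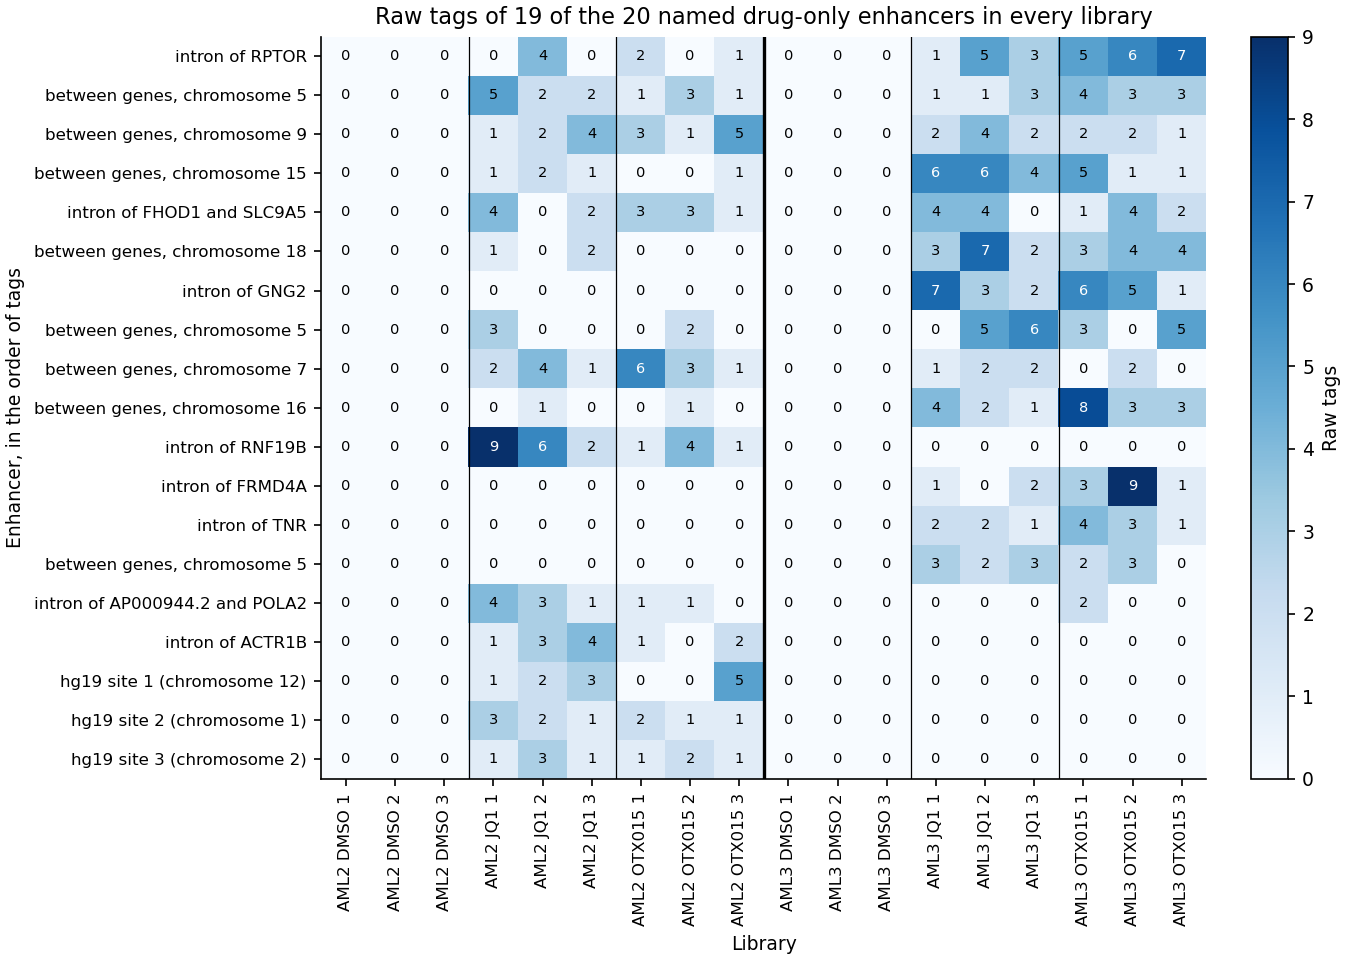
Raw tags of 19 of the 20 named drug-only enhancers, with a row per enhancer and a column per library, shaded and labelled by the number of tags. The enhancers in GNG2 and RNF19B introns have tags in AML3 alone and in AML2 alone, and those at chr5:141513469-141514447 and chr9:88777913-88778138 have a tag in every drug library.

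No drug-only enhancer was called between the compounds. Similar tag totals (1194 with JQ1 and 1127 with OTX015) make tags from both compounds likely at most enhancers with at least 6 tags. The count that follows is therefore a description, and it was not made over other enhancers. Of the 245, 243 had tags with both JQ1 and OTX015. The exceptions were chrX:37746038-37746720, in an intron of the long non-coding RNA AF241726.2 33632 bases from CYBB, with 2, 2 and 2 tags in AML2 with JQ1 and 0 elsewhere, and chr3:41117439-41117878, nearest to CTNNB1, with 1, 1 and 0 tags in AML2 and 2, 2 and 0 in AML3 with OTX015. In the edgeR test of OTX015 against JQ1, 0 drug-only enhancers were higher and 0 lower in AML2, in AML3 and over the lines together, against 0.0% of the 2380 enhancers tested in each. Unadjusted p-values under 0.05 were found for 5, 10 and 3 of the 245 (74, 61 and 66 of all enhancers tested), and DESeq2 also called 0. Over the enhancers with most tags that could be fitted, the log2 difference of OTX015 over JQ1 averaged over the lines ran from -1.64 to 1.08, with 95% intervals that reached from -3.79 to 3.25 and all held 0 (9 of 9). At this depth differences of several-fold between the compounds at single enhancers were not detectable, and the doses are not known to be matched.

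Between the lines, the shares called were near those of all enhancers tested when averaged over the compounds, and below them for each compound. Tags came from both lines at 171 of the 245, from AML3 alone at 48 and from AML2 alone at 26. Those with tags in a single line reached the minimum of 6 tags through that line, so that these counts are a description. The same holds for their fold bounds and p-values given below, and the counts of calls include such enhancers. Without the libraries numbered 3 these counts were 161, 55 and 29, with 1107 tags in AML3 and 648 in AML2. Averaged over the compounds, 48 of the 245 (19.6%) were higher and 22 (8.98%) lower in AML3 than in AML2 at an adjusted p under 0.05, against 15.6% and 7.77% of the 2380 enhancers tested. The median log2 difference was 1.21 over the drug-only enhancers and 0.59 over all enhancers tested, or 1.05 and 0.36 with those at 0 in a line set to their counting bound. For each compound alone, 2 were higher and 3 lower with JQ1 (5.92% and 3.15% of enhancers tested), and 4 were higher and 0 lower with OTX015 (5.67% and 2.23%), so that these counts were below the background.

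These counts rest on few tags and on the scaling. With the enhancer table's own totals and TMM factors the split averaged over the compounds was 16 higher and 26 lower, so that the direction of the count turned, and with promoter totals without TMM factors it was 65 higher and 16 lower. DESeq2 called 4 higher and 1 lower, and a replicate block within each line left 12 higher and 1 lower. A replicate block shared by the lines left 2 higher and 1 lower with JQ1, 5 and 0 with OTX015, and 21 and 11 averaged over the compounds. Deviations of same-numbered libraries of the lines had correlations of 0.123, 0.106 and 0.246 with JQ1 and 0.073, 0.16 and 0.231 with OTX015. Calls that held in every fit that left out 1 library were 12 of the 70 averaged over the compounds, 1 of 5 with JQ1 and 0 of 4 with OTX015.

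**Figure D3:**
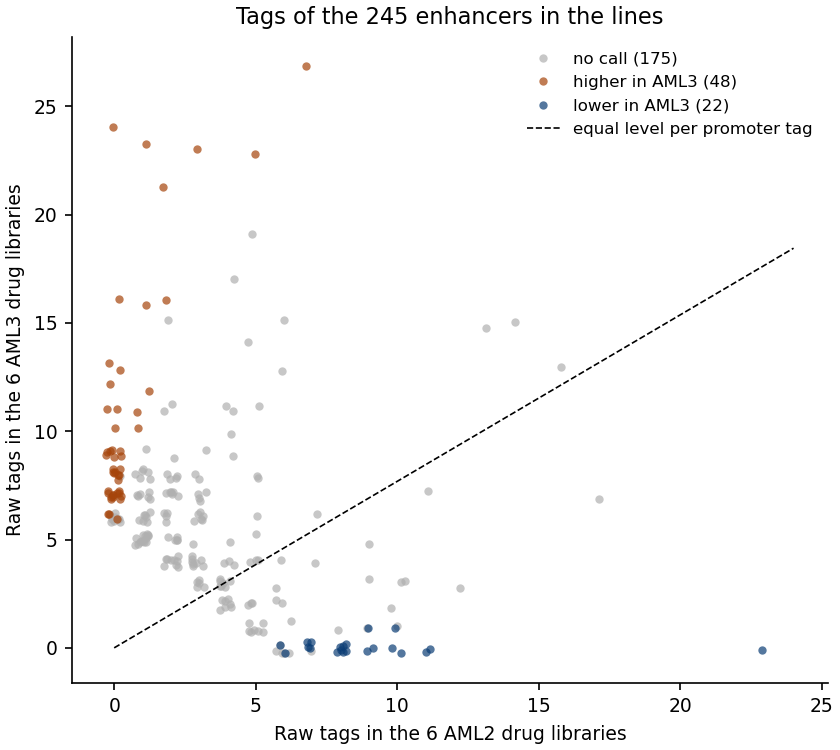
Raw tags of each drug-only enhancer summed over the 6 AML3 drug libraries against those of the 6 AML2 drug libraries, 1 slightly shifted point each, with colours for the 48 called higher and 22 called lower in AML3 and a dashed line of equal level per promoter tag. Enhancers along the axes had tags in a single line (48 in AML3 alone, 26 in AML2 alone).

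Among those higher in AML3, the clearest lay in an intron of GNG2, which encodes a G protein gamma subunit (chr14:51884280-51885130, 24 tags). It had 0 tags in all 6 AML2 drug libraries, 7, 3 and 2 in AML3 with JQ1 and 6, 5 and 1 with OTX015. Over the pooled tags its CPM was at least 10.4-fold higher in AML3 (adjusted p = 2.32e-05, edgeR), and each of the 6 AML3 libraries had a tag. It met the minimum of 6 tags through AML3 alone, as did the enhancers below with AML3 tags alone. Their values are therefore a description and no independent support for a difference. The enhancer at chr18:31206882-31207205, between genes, had 3, 7 and 2 and 3, 4 and 4 tags in AML3 against 1, 0, 2 and 0, 0, 0 in AML2, and its ratio in CPM of AML3 to AML2 was 9.97, with a 95% counting interval from 3.01 to 51.9 (adjusted p = 0.00151, edgeR). Both were kept in every fit that left out a library.

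A further enhancer of this kind lay 1166 bases from ZNF500, a zinc finger gene (chr16:4768668-4768912, 23 tags). It had 4, 2 and 1 and 8, 3 and 3 tags in AML3 and 1 tag with each compound in AML2, a ratio of 13.7 with an interval from 3.34 to 120 (adjusted p = 0.00605 averaged and 0.0309 with OTX015, edgeR). Its averaged call was kept in every fit that left out a library, and its OTX015 call in 1 of 6. Enhancers in an intron of TNR, the tenascin-R gene of extracellular matrix (chr1:175471040-175471288), and at chr5:160165610-160166176, between genes, each had 13 tags, all in AML3, and both were at least 5.64-fold higher there. An enhancer in an intron of FRMD4A, a scaffold protein of cell polarity (chr10:14327627-14327910), had 16 tags, all in AML3, of which 9 were in 1 library with OTX015. With OTX015 its adjusted p was 0.00806 (edgeR), and this call was not kept in every fit that left out a library. The RPTOR enhancer passed averaged over the compounds (log2 1.77 ± 0.64 SE, adjusted p = 0.031, edgeR), as did the one at chr15:26082302-26082518 (2.15 ± 0.76, adjusted p = 0.0272), and neither was kept in every fit that left out a library.

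Among those higher in AML2, the clearest lay in an intron of RNF19B, an E3 ubiquitin ligase (chr1:32962873-32963419, 23 tags), 1539 bases from the gene's start. It had 9, 6 and 2 tags with JQ1 and 1, 4 and 1 with OTX015 in AML2, and 0 in all 6 AML3 drug libraries. It was at least 5.89-fold higher in AML2 (adjusted p = 0.000118 averaged and 0.00109 with JQ1, edgeR), and both calls were kept in every fit that left out a library. Since it and the others here with AML2 tags alone were chosen through AML2 tags, their values are a description. An enhancer in an intron of ACTR1B, a dynactin subunit gene (chr2:97662695-97663247), had 11 tags, all in AML2, and was at least 2.82-fold higher there. One in an intron of POLA2, the B subunit of DNA polymerase alpha (chr11:65292254-65292517), had 10 tags in AML2 and 2 in AML3, a ratio of 3.84 whose counting interval from 0.819 to 36.1 held 1, although it passed with JQ1 (adjusted p = 0.0429, edgeR). Those at chr12:120426531-120426889, chr1:27959091-27959724 and chr2:240361184-240361566, in hg19 coordinates, had 11, 10 and 9 tags, all in AML2, and were at least 2.82-, 2.56- and 2.31-fold higher there. AML2 was sequenced more deeply, so that a 0 in AML3 gives a weaker bound than a 0 in AML2.

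Some drug-only enhancers lay close together. Their tags were few, and no test compared the neighbours. At RNF19B the intronic enhancer with AML2 tags alone was followed 17796 bases on by chr1:32981215-32981881, with 3 tags in AML2 and 7 in AML3, and after another 10430 bases by chr1:32992311-32993006, with 5 and 1. In introns of MOB3A, a kinase coactivator gene, chr19:2089079-2089379 had 1 tag in AML2 and 7 in AML3, and chr19:2093043-2093339, 3664 bases on, had 9 and 3. At the non-coding genes LINC01629 and AC007686.4 on chromosome 14, the middle one of 3 (chr14:76961717-76962208) had 12 tags, all in AML3 (adjusted p = 0.00682, edgeR), and its neighbours had tags in both lines. The enhancers chr5:160165100-160165420 and chr5:160165610-160166176, with 190 bases between them, had 8 and 13 tags, all in AML3.

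By gene features the drug-only enhancers lay much as the rest of the table did. Of the 203 with hg38 names, 114 (56.2%) had their midpoint in an intron, 84 (41.4%) between genes and 5 (2.46%) in an exon, against 56.3%, 40.1% and 3.62% of the 2986 other enhancers. Within 2000 bases of an annotated start lay 30.0% of them and 37.9% of the others, and the median distance was 4504 against 3607 bases. By another measure, names in hg19 were nearer than the rest, with 17 of 42 (40.5%) within 300 bases of a promoter of the promoter table against 28.2% of the 632 others. The median length of drug-only enhancers was 399 bases (79 to 1275) against 407. They were on 23 chromosomes, with 29 on chromosome 1 and 25 on chromosome 2. No test was run on these shares, and the share near a start depends on the distance allowed (4.43% within 500 and 52.2% within 5000 bases, against 6.4% and 56.5%).

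Of the 245, 20 held a promoter of the promoter table inside, 15 on the plus and 5 on the minus strand. Of these enhancers, 16 were among the 42 with hg19 names and 4 among the 203 with hg38 names. The share of other enhancers that hold a promoter was not counted. None of the 20 promoters had a vehicle tag. The enhancers were chosen for having no vehicle tag, so this is not a separate result. Such a promoter carried from 27.3 to 92.3% of the enhancer's tags (median 55.6%), and at least 80% in 5 cases. In those 5 the tags therefore came mostly from 1 strand, whereas enhancers are usually recognised in CAGE data by starts on both strands. The most one-sided with 12 or more promoter tags were chr7:139365521-139365926, with 12 of 13 tags, and chr18:9849459-9849859, with 14 of 17, both in hg19 and chosen after their values were seen.

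The gene table was not used to choose the enhancers, and the genes around them were tested one by one. Both tables come from the same libraries, however, so the genes are not independent of the choice. For 182 of the 203 an annotated transcript of a measured gene started within 100000 bases of the midpoint, which gave 175 genes, of which 135 had enough tags to test. Distances to genes are from the midpoint to the nearest such start, which need not be the gene's first. All 4 comparisons of a compound with vehicle within a line are given side by side, and those of 1 line share their vehicle libraries. In AML2, 60 of the 135 genes (44.4%) rose and 13 (9.63%) fell with JQ1, against 17.2% and 17.4% of the 10031 genes tested. With OTX015, 63 (46.7%) rose and 14 (10.4%) fell, against 20.5% and 19.9%. In AML3, 54 (40.0%) rose and 24 (17.8%) fell with JQ1, against 26.8% and 24.1%, and 56 (41.5%) rose and 30 (22.2%) fell with OTX015, against 28.8% and 26.1%. More of these genes rose and fewer fell than over all genes in each of the 4.

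The median log2 change of the 135 was 0.68 with JQ1 and 0.75 with OTX015 in AML2, and 0.32 and 0.41 in AML3, against 0.0, 0.02, 0.04 and 0.03 over all genes. Part of this held for enhancers in general, since genes nearest to other enhancers alone rose in 28.7%, 31.8%, 33.7% and 35.2% of cases, in the order of JQ1 and OTX015 in AML2 and then in AML3. Of the 135, 72 were nearest to drug-only enhancers alone, and of these 30.6%, 36.1%, 38.9% and 40.3% rose. In AML2 these values are close to those of the genes nearest to other enhancers alone. The lower share of falls was shared with other enhancers, whose nearest genes fell in 10.5%, 12.9%, 20.6% and 22.1% of cases. Of the 72 genes 12.5%, 12.5%, 19.4% and 26.4% fell, the last against 26.1% of all genes. Without TMM factors the split in AML2 was 63 higher and 5 lower with JQ1 and 66 and 10 with OTX015, and in AML3 69 and 9 with JQ1 and 66 and 14 with OTX015. The median of all genes itself then moved to 0.16, 0.21, 0.44 and 0.51 in that order. In all 4 comparisons 32 (23.7%) rose and 8 (5.93%) fell, against 9.57% and 11.2% of all genes. Whether the gene table also counts the tags of an enhancer inside the gene is not given in the sources used here.

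**Figure D4:**
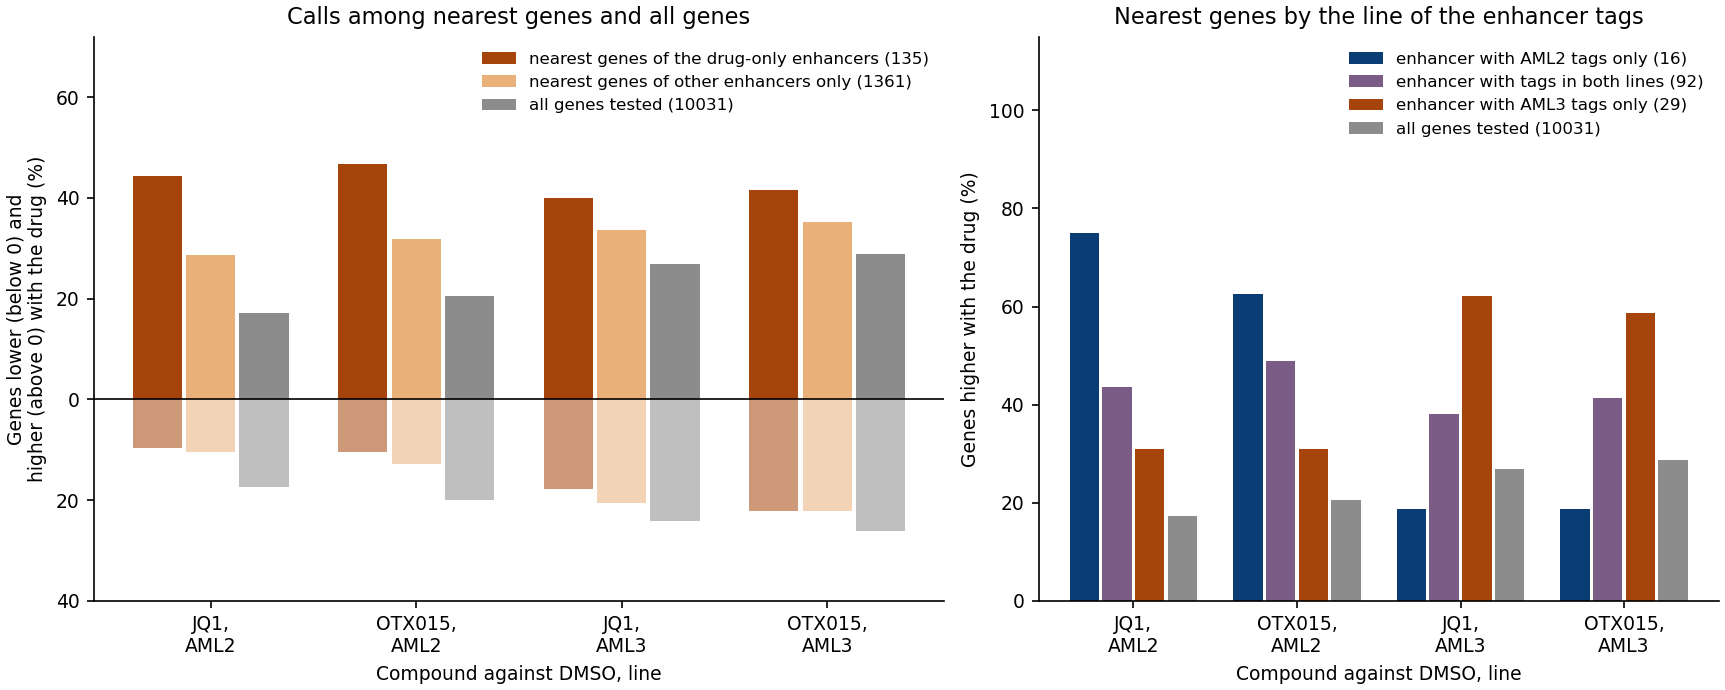
Percent of genes higher and lower with each compound against DMSO in each line (left), for the 135 nearest genes, the genes nearest to other enhancers alone and all 10031 genes tested, and percent higher by the line in which the enhancer had tags (right). Of the nearest genes of enhancers with AML2 tags alone, 12 of 16 were higher with JQ1 in AML2 and 3 of 16 in AML3.

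The nearest genes were also split by the line in which the enhancer had tags, after the data were seen. These classes were set by tags in the same drug libraries as the gene changes, so the counts by class are a description. Next to the 17 enhancers with AML2 tags alone were 16 tested genes, of which 12 rose with JQ1 and 10 with OTX015 in AML2, and 3 with each in AML3. Of all genes tested 17.2% and 20.5% rose in AML2 and 26.8% and 28.8% in AML3, and the 3 of 16 in AML3 are a share of 18.8%. Next to the 37 with AML3 tags alone were 29 tested genes, of which 9 (31.0%) rose with each compound in AML2, and 18 (62.1%) with JQ1 and 17 (58.6%) with OTX015 in AML3. Single libraries moved the smaller counts. Of the 16 genes, the share that rose in AML3 with JQ1 was 6.25% without library 3 of JQ1, and that with each compound was 12.5% without vehicle library 1. Of the 29 genes, the share that rose in AML2 with JQ1 was 17.2% without vehicle library 1. The genes next to enhancers with tags in both lines (92 genes) rose in 43.5% and 48.9% of cases in AML2 and in 38.0% and 41.3% in AML3. The difference itself was tested as the interaction of drug and line. Over the 135 genes the effect of JQ1 was higher in AML3 than in AML2 for 10 and lower for 16, against 3.02% and 3.92% of all genes, and that of OTX015 was higher for 6 and lower for 16, against 2.84% and 4.81%. Of the 16 genes it was lower in AML3 for 4 with JQ1 and 5 with OTX015, and higher for 0. Of the 29 genes it was higher in AML3 for 3 and lower for 1 with JQ1, and higher for 3 and lower for 2 with OTX015.

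Genes that rose in AML2 by the largest factors were BCL3, LFNG and CLIC3. BCL3, an atypical IkB protein that acts with NF-kB p50 and p52, holds a drug-only enhancer in an intron (chr19:44753289-44753845, 5 tags in each line). It had 3, 8 and 3 tags with vehicle in AML2, 113, 149 and 66 with JQ1 and 126, 139 and 50 with OTX015, and in AML3 2, 3 and 4, then 17, 5 and 20, and 9, 9 and 16. Its level in AML2 went from 3.57 ± 0.935 to 126 ± 8.01 and 129 ± 21.5 CPM (SD, n = 3 each), with no overlap between vehicle and drug, a log2 change of 5.06 ± 0.44 and 5.11 ± 0.44 SE (adjusted p = 3.44e-09 and 2.33e-09, edgeR). In AML3 it rose by 2.63 and 2.53 on the log2 scale, with overlapping libraries for JQ1.

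LFNG, a glycosyltransferase that modifies Notch receptors, starts 1285 bases from an enhancer with 6 tags, all in AML2 (chr7:2510786-2511702). Its level went from 6.27 ± 0.323 to 152 ± 41.9 and 203 ± 72.9 CPM in AML2 and from 10.4 ± 4.08 to 31.5 ± 25.9 and 32.6 ± 11.0 in AML3 (SD, n = 3 each). It rose in both lines, by 4.54 and 4.96 on the log2 scale in AML2 and by 1.5 and 1.65 in AML3, and the difference between the lines passed its own test. CLIC3, of the chloride intracellular channel family, starts 1228 bases from an enhancer with 6 tags, all in AML2 (chr9:136997878-136998185). It had 20, 25 and 7 tags with JQ1 and 20, 27 and 9 with OTX015 in AML2, and 0 tags in all 12 other libraries. That is at least 25.6-fold and 30.1-fold higher than with vehicle (adjusted p = 3.82e-06 and 1.48e-06, edgeR).

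The 3 largest called rises in AML3 with each compound were those of PCSK6, CRISPLD2 and STARD9. PCSK6, a proprotein convertase of the secretory pathway, had 0 tags in every AML2 library, 3, 3 and 2 with vehicle in AML3, 129, 89 and 54 with JQ1 and 118, 102 and 14 with OTX015. It rose by 5.43 ± 0.49 and 5.32 ± 0.49 SE on the log2 scale in AML3 (adjusted p = 4.71e-08 and 4.82e-08, edgeR). Of the 2 drug-only enhancers nearest to it, an intronic one (chr15:101455239-101455999) had 8 tags, all in AML3. CRISPLD2, a secreted glycoprotein that binds lipopolysaccharide, had 5, 1 and 2 tags with vehicle in AML3, 43, 48 and 48 with JQ1 and 52, 46 and 44 with OTX015, and rose there by 4.57 and 4.78 on the log2 scale. Its enhancer 13350 bases away (chr16:84806442-84806826) had 1 tag in AML2 and 5 in AML3. In AML2 CRISPLD2 had 1 tag with vehicle, 6 with JQ1 (adjusted p = 0.113) and 11 with OTX015 (adjusted p = 0.0124, edgeR).

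GNG2, whose intronic enhancer had tags in AML3 alone, itself rose in AML3 and did not pass in AML2. It had 47, 18 and 22 tags with vehicle in AML3, 199, 198 and 65 with JQ1 and 176, 189 and 46 with OTX015, or 24.8 ± 8.18, 168 ± 46.7 and 166 ± 58.5 CPM (SD, n = 3 each). The groups did not overlap in CPM, and the log2 change was 2.79 with each compound (adjusted p = 1.2e-06 and 9.73e-07, edgeR). In AML2 the changes were 1.22 and 0.1 (adjusted p = 0.13 and 0.941, edgeR), with overlapping libraries. STARD9, a kinesin-like mitotic protein, had 1 tag over the vehicle libraries of AML3 and 27 and 21 with JQ1 and OTX015, ratios of 36.7 and 32.7 with counting intervals from 6.05 to 1500 and from 5.25 to 1350. Its nearby enhancer (chr15:42581277-42581644, 9 tags) overlaps an exon of the processed pseudogene EIF4EBP2P2, so that its tags may belong to a near-identical copy.

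RNF19B, whose intronic enhancer had tags in AML2 alone, rose in both lines. Another drug-only enhancer nearest to it, described above, had tags in both lines. The gene had 8, 9 and 5 tags with vehicle, 27, 37 and 40 with JQ1 and 40, 51 and 36 with OTX015 in AML2, and 11, 5 and 4, then 40, 30 and 27, and 31, 21 and 31 in AML3. All drug libraries were above all vehicle libraries of their line, and the log2 changes were 2.84, 3.22, 2.73 and 2.74 with JQ1 and OTX015 in AML2 and then in AML3. The 23 tags of the intronic enhancer in AML2 are not small beside the gene's own there. ID3 and CYBB moved in opposite directions in the lines. ID3 rose in AML3 from 22.0 ± 4.87 to 91.0 ± 1.74 and 85.3 ± 16.7 CPM (SD, n = 3 each), or by 2.05 and 1.97 on the log2 scale. In AML2 it had 44, 56 and 3 tags with vehicle, 7, 11 and 8 with JQ1 and 4, 11 and 7 with OTX015. It fell there by 1.33 and 1.44, although the vehicle library with 3 tags lay below all AML2 drug libraries. The fall therefore rests on the other vehicle libraries. Of the 8 tags of its enhancer, 7 were in AML3.

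CYBB, the catalytic subunit of the phagocyte NADPH oxidase, is nearest to the enhancer that had tags with JQ1 in AML2 alone. Its tags in AML2 were 16, 22 and 13 with vehicle, 37, 35 and 31 with JQ1 and 32, 34 and 26 with OTX015, a rise of 1.59 and 1.55 on the log2 scale. In AML3 they were 17, 9 and 15 with vehicle, 2, 1 and 2 with JQ1 and 1, 0 and 0 with OTX015. It fell by 2.55 on the log2 scale with JQ1 there (adjusted p = 0.000874, edgeR), and with OTX015 the vehicle level was 26.4 times the drug level, with a counting interval from 4.47 to 1070. CYBB thus rose with OTX015 in AML2 too, where its enhancer had 0 tags.

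**Figure D5:**
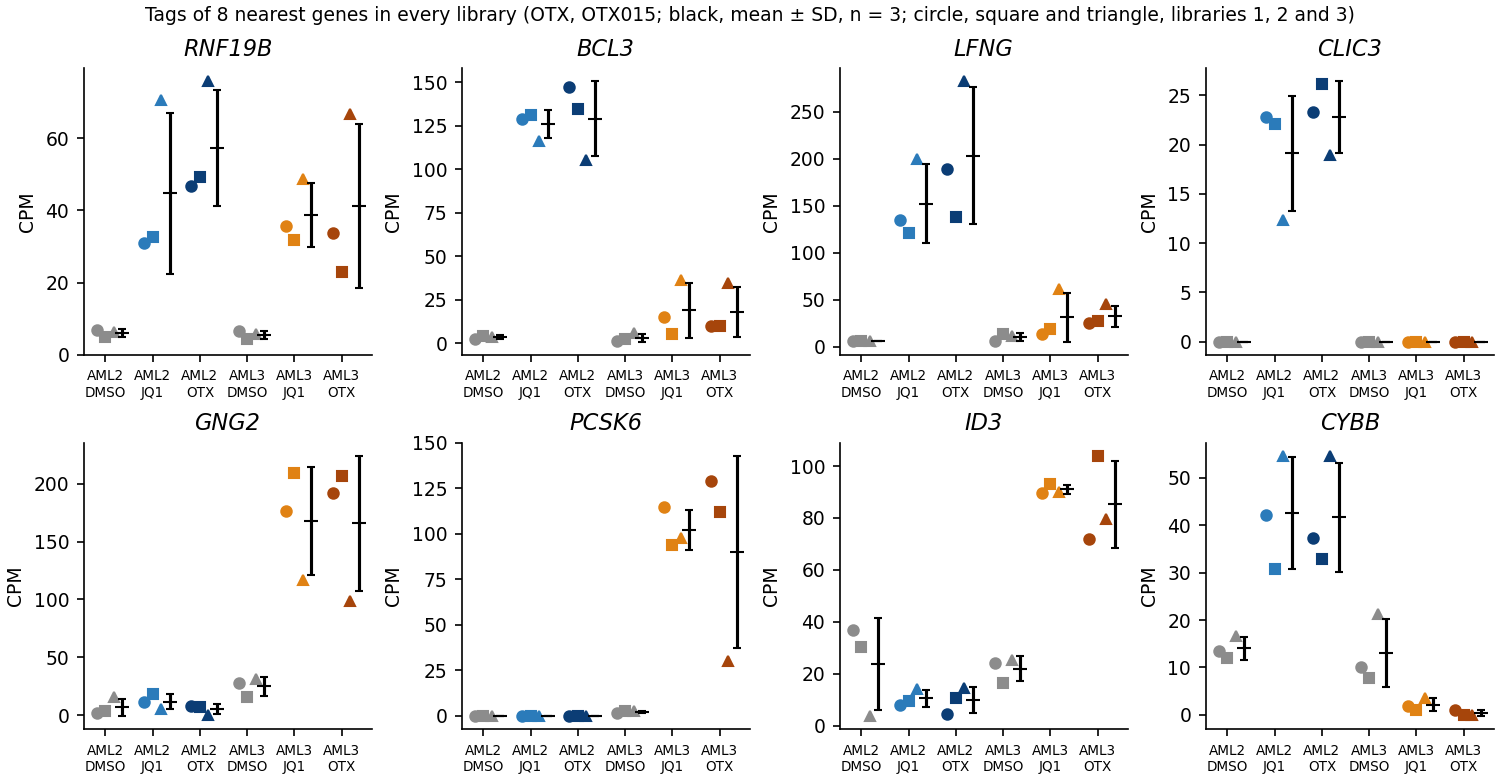
Level of named nearest genes in each of the 18 libraries, in CPM on a linear axis, with symbols for libraries, bars for mean ± SD and a panel per gene. BCL3 and LFNG are highest in the AML2 drug libraries, PCSK6 and GNG2 in the AML3 drug libraries, and the means of CYBB and ID3 move in opposite directions in the lines.

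Genes near a drug-only enhancer that fell were fewer. SERPINH1, the collagen chaperone HSP47, fell from 46.5 to 12.3 and 12.4 CPM in AML2 and from 44.2 to 14.9 and 17.0 in AML3, with no overlap of drug and vehicle libraries and log2 changes of -1.8, -1.83, -1.47 and -1.36 in the order above. ANAPC1, a scaffold subunit of the anaphase-promoting complex, changed by -1.14, -1.2, -0.82 and -0.86, and CMTM7, a MARVEL-domain membrane protein, by -0.75, -1.18, -1.73 and -1.51, all past the threshold. CD38 fell with both compounds in AML2 (-0.89 and -1.42) and with OTX015 in AML3 (-0.96), and its change with JQ1 in AML3 was -0.64 (adjusted p = 0.121, edgeR). POLA2 fell by 0.93 with OTX015 in AML2, and by 1.63 and 2.01 in AML3, and changed by -0.48 with JQ1 in AML2 (adjusted p = 0.295, edgeR). SLA, a Src-like adaptor of lymphoid and myeloid cells, fell with OTX015 in AML3 by 1.84 (adjusted p = 0.00281, edgeR).

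The genes nearest to the most tagged enhancers did not all move. RPTOR, whose nearest annotated transcript start lies 89677 bases from its enhancer and whose gene start is farther away, passed in none of the 4 comparisons. Its log2 changes were -0.45, -0.21, -0.34 and 0.04. ZNF500 rose in AML3 (1.72 and 1.82), PWWP2A, a reader of the histone variant H2A.Z, rose in AML3 (1.01 and 1.26), and the antisense RNA AC025171.3 rose in all 4 (2.8, 2.75, 2.12 and 2.17). ACTR1B rose with JQ1 in AML2 alone (0.87, adjusted p = 0.0172, edgeR). FRMD4A, PCDHGC3, SLC9A5 and the pseudogene RPL23P8 had too few tags to test.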

How the data were processed

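Raw CAGE tag counts, deposited by the authors without normalization, cover 18 libraries and 14079 gene symbols, 42133 promoters and 3863 enhancers, each with at least 3 tags in all. STAR and hg38 were used, per the submitters' processing notes. The sources used here do not give their versions, how enhancers were defined and counted, or how duplicate reads were handled. Enhancer names without a build were read as hg38: 3.54% of their midpoints fell in a GENCODE 29 exon of GRCh38 against 8.22 to 8.75% after shifts by 20000 or 50000 bases. Names in hg19 (42 of the 245) were not annotated, and coordinates are printed as named, in an unstated base convention.

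Levels are CPM, per 1000000 promoter tags for enhancers and per 1000000 tags of the genes tested, scaled by TMM factors, for genes. Tests were edgeR 4.0.16 quasi-likelihood fits in R 4.3.3 over all 18 libraries, with 1 mean per group (12 residual degrees of freedom), TMM factors and Benjamini-Hochberg adjustment over all features tested, called under 0.05. Enhancers needed 6 tags over the 18 libraries, which all 245 had (2380 tested). Of the 245, 21 passed the alternative of 3 tags in 3 libraries. Genes passed filterByExpr. Fits were tested on simulated data. Counting intervals are exact at 95%, and they and the limit of 3 tags for a count of 0 cover counting error alone. DESeq2 1.42.0 was an alternative.

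Same-numbered libraries of JQ1 and OTX015 within a line had correlated deviations (0.121, 0.158 and 0.347 in AML2, 0.374, 0.351 and 0.623 in AML3). Between the lines, same-numbered libraries with a compound had 0.073 to 0.246, which overlaps the values in AML2. The largest values were those of the libraries numbered 3, the shallowest of each group, and the part of depth was not tested. For DMSO with a compound they ran from -0.053 to 0.164 in AML2, overlapping those of JQ1 with OTX015 there, and from 0.033 to 0.096 in AML3. A pairing, of DMSO or between the compounds, is thus not settled, and the main tests left it out, with the replicate block as an alternative. No 2 libraries held the same counts.

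Named enhancers were the 10 with most tags and up to 5 each way per comparison with the smallest adjusted p. One of these 20 enhancers and its nearest gene are not reported here. Named genes were those nearest to them, and per drug comparison up to 3 each way with the largest called change and a mean of at least 10 CPM in a group. The enhancers, lists and tests were chosen with earlier results of these data known.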

Additional observations from a re-analysis of the deposited data

Results flagged for a closer look

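For 5 of the named nearest genes the drug effect differed between the lines, with 1 compound or both, by the interaction test (edgeR quasi-likelihood, adjusted over all genes tested), given as the log2 effect in AML3 minus that in AML2. For CYBB the difference was -4.15 with JQ1 (adjusted p = 0.000188) and -5.96 with OTX015 (adjusted p = 4.06e-05, resting on 1 tag in AML3 with OTX015). For LFNG, which rose in both lines, it was -3.04 (adjusted p = 0.00573) and -3.31 (adjusted p = 0.00249). For ID3 it was 3.38 (adjusted p = 0.000228) and 3.41 (adjusted p = 0.000243). For STARD9 it was 4.3 with JQ1 (adjusted p = 0.0409), from 1 vehicle tag in AML3, and 3.27 with OTX015, which did not pass (adjusted p = 0.132). For GNG2 it was 2.69 with OTX015 (adjusted p = 0.0481) and 1.57 with JQ1, which did not pass (adjusted p = 0.237). The enhancers nearest to CYBB and LFNG had tags in AML2 alone and that in GNG2 in AML3 alone, and the part of the enhancers in these differences was not tested.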

How the results depend on the processing

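The drug-only enhancers are thinly tagged, so counts of calls between the lines moved with most settings, and the causes were not tested. The number of enhancers chosen was 245, and it was 474 with at least 4 drug tags, 71 with at least 10, 487 with 1 vehicle tag allowed, and 203 to 333 when a library was left out. OTX015 against JQ1 gave 0 calls under every setting run, the replicate block included.

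Called between the lines were 5 with JQ1, 4 with OTX015 and 70 averaged. Without a filter 3 were called with JQ1 and 37 averaged, and with 3 tags in 3 libraries 7 with OTX015 and 13 averaged, where 21 of the 245 were tested. Promoter totals without TMM factors gave 9 with JQ1 and 10 with OTX015 (81 averaged), and enhancer totals gave 42 averaged, with the median of all enhancers tested at 0.99 and 0.25 in place of 0.59. DESeq2 gave 0, 1 and 5. The 12 drug libraries alone gave 7 with OTX015. The replicate block within a line gave 3 with JQ1 and 13 averaged, and the replicate block shared by the lines, added after seeing the data, gave 3 and 32. Replicates 1 and 2 alone gave 3, 2 and 12. Leaving out 1 library gave 1 to 4, 0 to 4 and 29 to 54. The counts fell by over 1.5 times without any AML2 drug library or library 1 of either AML3 drug group (averaged), with JQ1 without any library of the comparison but library 3 of AML2, and with OTX015 without library 1 or 2 of AML2 or 1 or 3 of AML3.

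As a share of enhancer tags the summed levels were 3.19, 2.94, 3.88 and 3.85%, in which the lines differ less than in CPM. Without a library they were 144 to 168, 147 to 176, 286 to 405 and 344 to 441 CPM. The share near a start was 30.0%, and 4.43% within 500 and 52.2% within 5000 bases.

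The share of nearest genes that rose stayed within 1.5 times under every setting run, at 37.0 to 40.0%, 38.5 to 42.2%, 31.9 to 39.3% and 38.5 to 41.5% without a library (JQ1 and OTX015 in AML2, then in AML3). The share that fell was 4.44 to 6.67%, 8.15 to 8.89%, 12.6 to 15.6% and 15.6 to 20.0%. It moved without TMM factors to 3.7% (JQ1, AML2), 6.67% (JQ1, AML3) and 10.4% (OTX015, AML3), and with the gene whose body holds the midpoint to 5.56% and 13.9% with OTX015 in AML2 and AML3. It fell by over 1.5 times with JQ1 in AML2 without library 1 or 2 of the vehicle or 1 or 3 of JQ1. Genes next to enhancers with AML2 tags alone rose in AML3 in 31.2% of cases with each compound without TMM factors. The replicate block changed no other count by over 1.5 times. Shares of motifs in 200, 300 and 500 bases around all 245 midpoints were not run, since no genome sequence was used here.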

Other observations

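Beyond ID3 and CYBB, 4 other genes nearest to a drug-only enhancer were called in opposite directions in the lines with both compounds, named after their values were seen. Such genes were 6 of 135 (4.44%), against 0.698% of the 10031 genes tested. LCP1, the actin-bundling protein L-plastin of leukocytes, rose by 1.19 and 1.03 on the log2 scale with JQ1 and OTX015 in AML2 and fell by 0.92 and 1.31 in AML3. VSIR, the immune checkpoint receptor VISTA, rose by 1.79 and 1.64 and fell by 0.98 and 1.41. ZFP36L2, an RNA-binding protein that destabilises AU-rich transcripts, rose by 1.25 and 1.19 and fell by 1.07 and 0.95. IL10RB, a subunit of the interleukin 10 receptor, rose by 0.53 and 0.57 and fell by 0.48 and 0.5. All 4 differ in direction from ID3, which rose in AML3 and fell in AML2.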
